A study of Mus musculus with 2 samples.

Results

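The eukaryotic translation initiation factors (Eif genes) and elongation factors (Eef genes) were examined in the tibialis anterior, a shin muscle made mainly of fast fibres, on 2 single-colour mouse arrays. Members were all genes whose name on the array begins with Eif or Eef and a digit, apart from the eIF4E-binding proteins (names starting Eif4ebp) and the Y-linked Eif2s3y. The rule used names alone and found 59 genes among the 24082 named genes on the array. The 59 genes were read by 95 probes, of which 84 passed background by a clear margin (the scanner software's flag "well above background") on each array. At least 1 such probe was found for 56 of the genes. The 2 samples came from adult male C57BL/6 mice, with 1 array for the control genotype and 1 for mice carrying activated Notch2, the intracellular part of the receptor (N2ICD), as a transgene. The labels name no promoter for the transgene and do not say whether a sample was a single animal or a pool. By its title the study concerns what Notch2 made by myofibres does to the mass and fibre composition of muscle. The comparison here asks how the mRNAs of the translation machinery differed between the arrays.

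Initiation factors bring the small ribosomal subunit, the initiator tRNA and the mRNA together. The factor eIF2 carries the initiator tRNA, eIF2B recharges eIF2 with GTP, eIF3 holds the small subunit and the mRNA, and eIF4F binds the cap of the mRNA and unwinds it. Elongation factor eEF1A then delivers each aminoacyl-tRNA, eEF1B recharges eEF1A, and eEF2 moves the ribosome along the mRNA. Most cells use the eEF1A made from Eef1a1, while mature muscle fibres, neurons and heart muscle switch to the close paralogue Eef1a2 after birth.

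Each array was scaled to its 75th percentile, a processed signal of 169 for control and 190 for N2ICD. Differences are log2 values, N2ICD minus control, after this scaling, while signals are printed as scanned, before it. With 1 array per group there was no replicate check and no test, so values are described by size and set against all 12530 named genes measured on both arrays. Genotype, animal, dissection and array cannot be told apart, and in whole muscle fewer cells of a type cannot be told apart from less RNA per cell. Repeated spots of the same probe gave a measure of technical error, an SD of the log2 difference of 0.145 over 268 probes, which ran from 0.252 for the dimmest probes over 0.130 and 0.0843 to 0.0544 for the brightest, with boundaries at signals of 136, 366 and 1091. This spot noise holds no spread between animals. The fast-fibre genes Acta1, Ckm, Myh4 and others of a list of 12 were all well above background on both arrays, as the label of the tissue requires. Of the 2 Notch2 probes, the probe at base 7448 had a signal of 6.01 in control, not well above background, and 221 in N2ICD, which sets a bound of at least 7.72-fold higher there. The probe at base 10129 had 189 and 179, and which of these sequences the transgene carries was not analysed here. The Notch target Hes1 had signals of 55.4 and 348, a difference of 2.48.

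The results turn on a few probes, and a stretch of 30 of the 60 bases of each is printed here from the array files to show what was measured. The 2 Eef1a1 probes are neighbours on the transcript and share 10 bases, given in capitals, so they are not independent readings. The Eef1a2 probe shares no run longer than 8 bases with either of them. The Eif3j1 and Eif2s2 probes are shown because these genes had the highest differences among the members.
Eef1a1, probe at base 1555 (chr9:78326435-78326494, mm9, minus strand), last 30 bases: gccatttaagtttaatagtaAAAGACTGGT
Eef1a1, probe at base 1605 (chr9:78326385-78326444, mm9, minus strand), first 30 bases: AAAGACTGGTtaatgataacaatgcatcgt
Eef1a2, probe at base 1290 (chr2:180884427-180884486, mm9, minus strand), first 30 bases: cgggttcaatgtgaagaatgtgtccgttaa
Eif3j1, probe at base 2224 (chr2:121879180-121879239, mm9, plus strand), first 30 bases: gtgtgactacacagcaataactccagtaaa
Eif3j1, probe at base 5093 (chr2:121882015-121882074, mm9, plus strand), first 30 bases: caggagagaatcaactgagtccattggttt
Eif2s2, probe at base 1406 (chr2:154698193-154698252, mm9, minus strand), first 30 bases: gatgggggtaaggaggtactttttaaaatc
Eif2s2, probe at base 2446 (chr2:154697153-154697212, mm9, minus strand), first 30 bases: atgatgcccaatgttggctataactgcgtg
Bases are counted from 1 at the start of the transcript given for each probe on the array. Probes of the same gene can refer to different transcripts, as those of Eif3j1, Eif2ak4 and Eif4g3 do. Their base numbers then give no common order. No gene model of the mm9 build was used, so the probes were not assigned to exons, coding sequence or flanking transcript parts.

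The mRNAs of the translation factors differed little between the arrays. Of the 56 measured members, 3 had a level 1.5-fold or more above control in N2ICD, a log2 difference of 0.58 or more, and 0 lay that far below control. Those 3 were Eif3j1, Eif2s2 and Eif4e3. The share past 1.5-fold upwards was 5.36% of the members, near the 5.16% of all genes, while 4.75% of all genes were at least 1.5-fold lower. No member passed 2-fold, a size that 1.45% of all genes reached upwards and 0.918% downwards. The median difference of the members was 0.061, against 0.0038 over all genes, and 38 of 56 lay above 0, or 67.9% against 50.5% of all genes. After quantile normalization 29 of 56 lay above 0, beside 49.3% of all genes, and the members' median was 0.020. Their interquartile range ran from -0.019 to 0.23, against -0.19 to 0.19 for all genes. Differences of 48 of the 56 (85.7%, against 67.2% of all genes) lay within 0.289 of 0, which is 2 SD of the spot noise pooled over all levels. The 8 beyond this pooled limit lay upwards. Bright probes have less noise, and at their SD of 0.0544 further members lay more than 2 SD from 0 in both directions. Downwards on the 75th percentile scale these were Eif5a (-0.27), Eef1d (-0.26) and Eif4e2 (-0.12). Upwards they included Eef1b2 (0.26), Eif1 (0.24), Eif3h (0.23), Eif4g1 (0.21) and Eef2 (0.21). The pooled limit is therefore too wide for bright members.

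**Figure D1:**
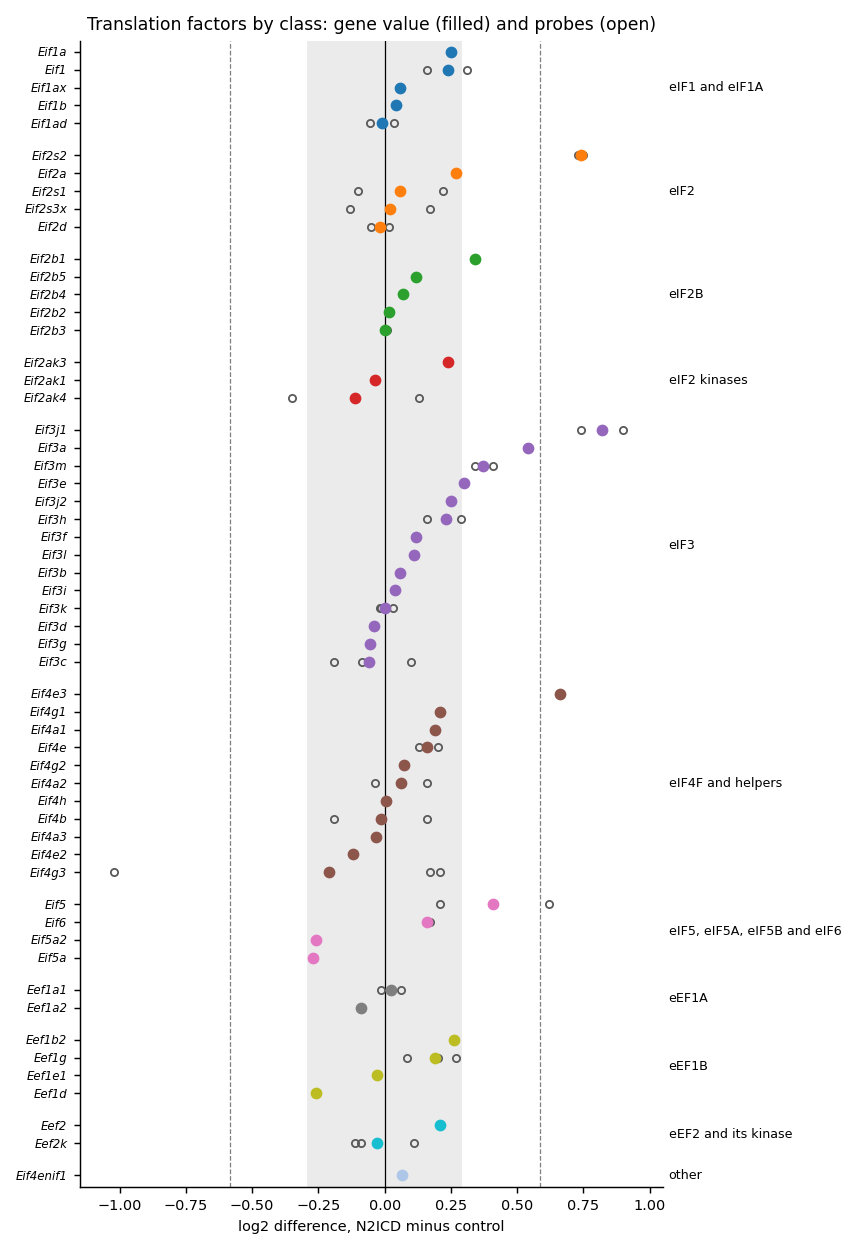
Log2 difference (N2ICD minus control, horizontal axis) of each measured translation factor, grouped by class. Filled points are gene values, open points are the probes of genes with probes well above background on both arrays, the grey band is 2 SD of the spot noise (0.289) and dashed lines mark 1.5-fold; only Eif3j1, Eif2s2 and Eif4e3 lie past the upper line as genes, and 1 Eif4g3 probe at -1.02 lies past the lower line.

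The members were brighter than most genes, and brighter genes lay slightly higher in general. The median control signal was 1997 for the members and 338 for all genes, and 33 of the 56 members were among the 3133 brightest genes. Among these the median difference was 0.071 for the members and 0.046 for all genes, with 25 of the 33 members above 0 against 58.0% of all genes. The SD of the differences there was 0.189 among the members and 0.321 among all genes. After loess correction on signal level the members' median was 0.030 and that of all genes 0.0068, so the gap between the medians was 0.023, against 0.057 before the correction.

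**Figure D2:**
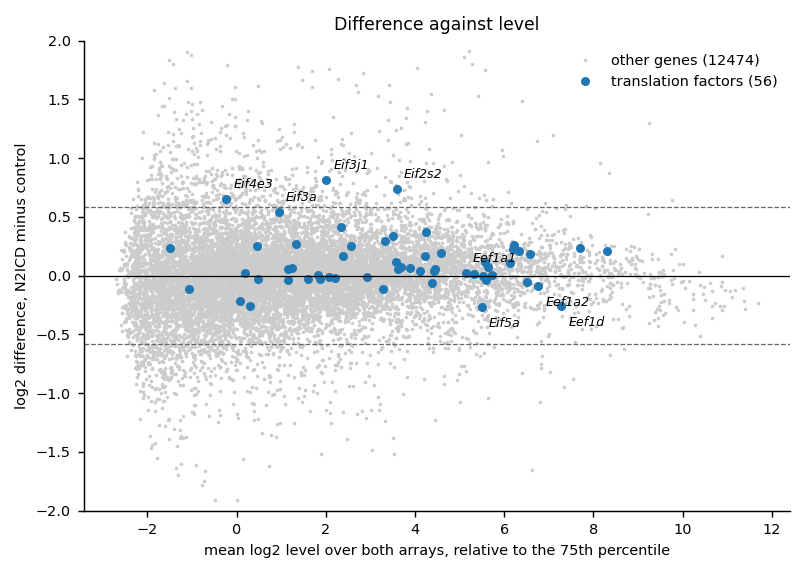
Log2 difference (N2ICD minus control, vertical axis) against mean log2 level over both arrays for the 12530 measured genes, with the 56 translation factors in blue and dashed lines at 1.5-fold; 27 genes beyond 2 log2 units are outside the plotted range. The translation factors sit mostly at high level and close to 0, with Eif3j1, Eif2s2, Eif4e3 and Eif3a the highest.

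The paralogues of eEF1A lay close to 0 and to each other. Eef1a1 read 5139 (control) and 5739 (N2ICD) at base 1555, and 6742 and 7930 at base 1605. The 2 probes gave differences of -0.013 and 0.062, a mean of 0.025 or 1.02-fold. Eef1a2 had signals of 18924 and 20031 at its only probe, a difference of -0.090, or 1.06-fold lower in the N2ICD array. Signals of both genes were higher as scanned on the N2ICD array, and the scaling set Eef1a2 just below 0. The Eef1a1 difference exceeded the Eef1a2 difference by 0.11, a 1.08-fold change in their ratio. This gap is larger than the spot noise SD of a single probe this bright (0.0544), but it joins probes of both genes and so holds more noise than that. It is smaller than the SD of 0.230 between different probes of the same member, a value widened by the probes of Eif4g3. A scale that shifts a whole array cannot change this gap, so it was 0.11 by construction on the spike-in scale described below. Of the settings that could change it, normexp background correction gave 0.084 and quantile normalization 0.11. Loess on level gave 0.10 and the brightest probe of each gene 0.15. Levels of the paralogues were not set against each other, because different probes bind with different strength.

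Cells other than muscle fibres make mainly Eef1a1, and their markers were read on the same arrays. Of 6 fibroblast markers 4 lay below 0, with a median of -0.27 and a summed signal of 100408 (control) and 91668 (N2ICD). Of 5 endothelial markers 4 lay below 0, with a median of -0.34 and summed signals of 4816 and 4277. Of 5 measured macrophage and leukocyte markers 3 lay below 0, with a median of -0.42 and summed signals of 1242 and 1050, and Ptprc was not well above background on both arrays. The 12 fast-fibre markers had a median of -0.21 with 10 below 0, and the 7 slow-fibre markers a median of 0.65 with 6 above 0. The pericyte, Schwann, adipocyte and erythroid lists had medians of -0.0029, 0.040, -0.076 and -0.083, and 2 measured satellite cell markers a median of 0.43. The satellite cell marker Myf5 did not pass background on both arrays. The part of these shifts in the eEF1A values was not tested.

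**Figure D3:**
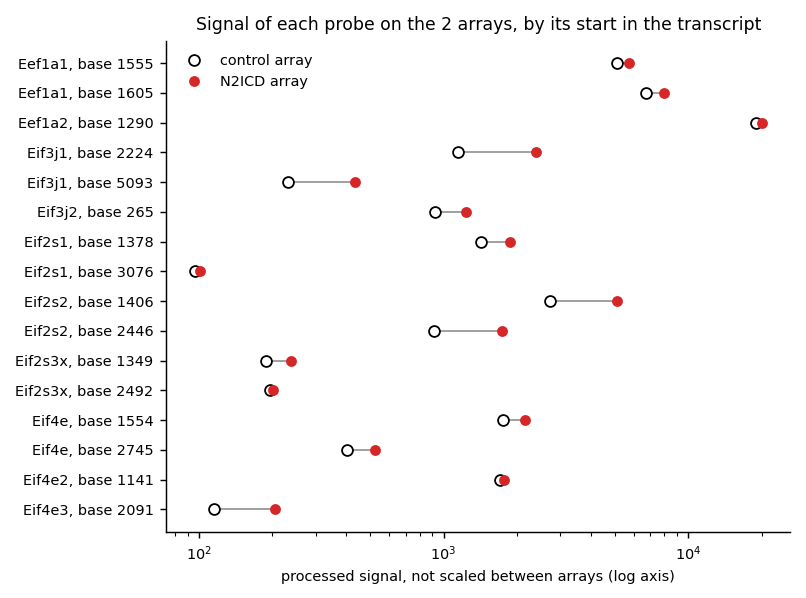
Processed signal (log axis, as scanned) of each probe well above background on both arrays of Eef1a1, Eef1a2, Eif3j1, Eif3j2 and the eIF2 subunits and cap-binding genes on the control array (open) and the N2ICD array (red), labelled by the probe's start in the transcript. Of the probes shown, the 2 points of each Eef1a1 and Eef1a2 probe lie close together, while those of both Eif3j1 probes, both Eif2s2 probes and the Eif4e3 probe lie furthest apart.

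Of the other elongation factors, Eef1b2, Eef1g and Eef2 lay above 0 and Eef1d below. Eef1b2, a nucleotide exchange chain of eEF1B, had signals of 11455 and 15488, a difference of 0.26. Eef1g, the structural gamma chain, gave 0.086, 0.27 and 0.20 at 3 probes, a mean of 0.19. Eef1d, the other exchange chain, had signals of 28795 and 27124, a difference of -0.26 that rests on 1 probe and was 0.26 on the spike-in scale described below. So the chains of the same complex differed by more than the spot noise at their brightness. Eef1e1, which belongs to the multi-synthetase complex, had signals of 517 and 572 and a difference of -0.027. The translocase Eef2 had signals of 49917 and 64859, a difference of 0.21. Eef2k, the kinase that switches off eEF2, gave -0.11, -0.090 and 0.11 at 3 probes, a mean of -0.029. The 8 elongation genes together had a median of -0.0013, with 4 above and 4 below 0.

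Of the 3 eIF2 subunits only the beta subunit had a gene value past 1.5-fold. For Eif2s2, which encodes it, the signals were 2735 (control) and 5113 (N2ICD) at base 1406, and 915 and 1728 at base 2446. The differences of 0.73 and 0.75 were 0.014 apart before rounding, and their mean of 0.74 was a 1.67-fold higher level, which 3.10% of all genes reached or passed. Spot noise at the brightness of both probes had an SD of 0.0544. Eif2s1, the alpha subunit whose phosphorylation slows initiation, gave 0.22 at base 1378 and -0.10 at base 3076, where signals were only 96.1 and 101. Eif2s3x, the X-linked gamma subunit, gave 0.17 and -0.13 at 2 probes with signals between 188 and 238. By gene value Eif2s2 therefore exceeded Eif2s1 by 0.68 and Eif2s3x by 0.72, more than any gap between probes of these subunits. The 0.68 takes in the dim Eif2s1 probe, and against the bright Eif2s1 probe at 0.22 the gap is smaller. Over the settings tried other than the spike-in scale, Eif2s2 lay between 0.69 and 0.81.

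Eif2a, a separate factor that can bind initiator tRNA, had signals of 387 and 524 and a difference of 0.27. Eif2d, another non-canonical initiation factor, was measured most often, because its probe at base 1616 was printed 10 times. Its spots averaged 722 in control and 823 in N2ICD, a difference of 0.017 with an SD of 0.0488 over the 10 spots, so this member differed by less than its spot noise. The other Eif2d probe gave -0.050.

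The 5 subunits of eIF2B, the exchange factor for eIF2, all lay above 0, with a median of 0.071, but Eif2b2 and Eif2b3 changed sign with the scaling: they were -0.022 and -0.016 after quantile normalization and -0.037 and -0.011 after loess, and Eif2b3 was -0.0057 when the percentile was taken over spots above background. The alpha subunit Eif2b1 was highest, with signals of 1715 and 2447 and a difference of 0.34, while Eif2b2, Eif2b3, Eif2b4 and Eif2b5 ran from 0.0028 to 0.12. The gene values of the 3 measured kinases that phosphorylate eIF2 ran from -0.11 to 0.24. Eif2ak1, the haem-regulated kinase, had signals of 378 and 416 and a difference of -0.035. Eif2ak3, the kinase of the endoplasmic reticulum stress response also called PERK, had 55.6 and 73.8, a difference of 0.24 that was 0.071 after normexp background correction and lies within the spot noise of dim probes. Eif2ak4, the amino acid sensor GCN2, gave 0.13 and -0.35 at 2 probes. Its remaining probe, at base 1652, passed background in N2ICD only (49.5, against 19.3 in control), at least 1.73-fold higher, and is not part of the mean for the gene. These 3 probes refer to different transcripts and do not give a common direction for Eif2ak4. Eif2ak2, the kinase activated by double-stranded RNA, passed background on neither array.

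The eIF3 complex held the highest member. Eif3j1, a loosely bound subunit that sits in the decoding centre and helps position the mRNA, gave 1143 (control) and 2394 (N2ICD) at base 2224, and 231 and 434 at base 5093. The differences were 0.90 and 0.74, a mean of 0.82 or 1.76-fold, which 2.46% of all genes reached or passed. Other settings than the spike-in scale placed Eif3j1 between 0.76 and 0.90. A probe named Eif3j2, the paralogue, gave signals of 924 and 1239 and a difference of 0.25, so it fell short of Eif3j1 by 0.57. The array files place this probe at chr2:121866905-121867335, a span of 431 bases for a 60-base probe, 12275 bases before the first Eif3j1 probe on the same chromosome, whereas RefSeq (GRCm38.p6) lists the Eif3j2 gene on another chromosome than Eif3j1. Which of the paralogues this probe reads was not tested, so its value is uncertain as a value of Eif3j2.

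Eif3a, the large scaffold subunit of eIF3, had signals of 270 and 442 at 1 probe and a difference of 0.54, or 1.45-fold, just under the 1.5-fold size. Eif3m gave 0.41 and 0.34 at 2 probes, a mean of 0.37 with signals of 2823 and 4122. Eif3e followed with 0.30 and Eif3h with 0.23, from probes at 0.29 and 0.16. At the other end, Eif3c, a core subunit, gave -0.19, -0.085 and 0.098 at 3 probes and Eif3g lay at -0.057. The partner subunits Eif3b and Eif3i stood at 0.059 and 0.039, and Eif3k gave 3 probes between -0.019 and 0.031. Over the 14 measured eIF3 genes the median was 0.11, with 10 above and 4 below 0. The subunits did not share a size of difference: Eif3j1 and Eif3a stood apart from Eif3c, Eif3d and Eif3g by more than the SD between probes.

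Of the cap-binding proteins, the less common Eif4e3 stood past 1.5-fold and Eif4e and Eif4e2 close to 0. The only probe of Eif4e3 read 115 in control and 204 in N2ICD, a difference of 0.66 or 1.58-fold. At this dim level the spot noise is larger, with an SD of 0.130, and after normexp background correction the difference was 0.40, below the 1.5-fold size. Eif4e, the general cap-binding protein, gave 0.13 and 0.20 at 2 probes, a mean of 0.16 with signals of 841 and 1061. Eif4e2, a repressive cap-binding homologue, had signals of 1706 and 1773 and a difference of -0.12. The egg-type isoform Eif4e1b was not well above background at either of its 2 probes. Eif4enif1, which carries eIF4E into the nucleus, lay at 0.065.

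The eIF4A helicases and eIF4G scaffolds showed small differences. Eif4a1 had signals of 3770 and 4846 and a difference of 0.19, Eif4a2 had 0.063 and Eif4a3, a part of the exon junction complex, -0.031. The scaffold Eif4g1 had 12706 and 16540, a difference of 0.21, and Eif4g2, which works without the cap-binding protein, 0.072. The helpers Eif4b and Eif4h lay at -0.014 and 0.0060, with Eif4b spread from -0.19 to 0.16 over 3 probes. Eif4g3 was the member whose probes disagreed most, and they refer to different transcripts. Its bright probe at base 5355 had signals of 1816 and 2361 and a difference of 0.21, and a dim probe at base 2600 gave 0.17. The probe at base 1986 read 68.6 in control and 38.2 in N2ICD, a difference of -1.02 between dim signals. The remaining probe, at base 994, passed background in control only, reading 29.0 there and 27.9 in N2ICD. After scaling this was 1.17-fold lower, a difference of -0.23 that lies within the spot noise of dim probes (SD 0.252). The gene value of -0.21 is negative through the probe at base 1986, and with the brightest probe alone it was 0.21, so no direction is given for Eif4g3.

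Of the late initiation factors Eif5, which triggers GTP hydrolysis on eIF2, gave 0.21 at base 729 and 0.62 at base 3726, a mean of 0.41 with signals of 746 and 1118. Its probe nearer the end of the transcript therefore passed 1.5-fold while the gene value did not. Eif6, which keeps the ribosomal subunits apart, gave 0.16 and 0.17 at 2 probes. Eif5a and Eif5a2, which carry the modified amino acid hypusine and help peptide bonds form, were the lowest members at -0.27 and -0.26. Eif5a read 8374 in control and 7850 in N2ICD, a 1.20-fold lower level, and Eif5a2 230 and 216, also 1.20-fold lower. Each rests on 1 probe, and both differences were 0.26 on the spike-in scale. Eif5b, the GTPase that joins the subunits, passed background on neither array at its only probe. The factors eIF1 and eIF1A take part in scanning for the start codon. In their group, formed by gene name and so also holding Eif1ad, Eif1 gave 0.31 and 0.16 at 2 probes. Eif1a lay at 0.25, Eif1ax at 0.059, Eif1b at 0.042 and Eif1ad at -0.0092.

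Different probes of the same gene offered a second look at the error. Of 22 members with several measured probes, 9 had all probes on the same side of 0. The median gap between the highest and lowest probe of a member was 0.16 and the largest was 1.22, in Eif4g3. The SD between probes was 0.230 over these members and 0.252 over the 3124 genes with several probes. Eif4g3 alone, with measured probes from -1.02 to 0.21, gave the largest part of the 0.230, which is therefore wide for most members. Eif3j1, Eif2s2 and Eif3m each stood further from 0 than this wide SD at every probe. Eif4e3, Eif3a and Eif2b1 had 1 probe with 1 spot per array.

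Several elongation and eIF3 genes begin with a terminal oligopyrimidine tract, through which the growth regulator mTOR controls their translation along with that of ribosomal proteins. The 8 members chosen as carrying it (Eef1a1, Eef1b2, Eef1d, Eef1g, Eef2, Eif3e, Eif3f and Eif3h) had a median of 0.20, with 7 above 0. The other 48 measured members, which were not checked for such a tract, had a median of 0.058. The range of the 8 was -0.26 to 0.30, inside that of the others, -0.27 to 0.82. For comparison, 82 measured cytosolic ribosomal protein genes had a median of 0.10, with 61 above 0, and 0 past 1.5-fold in either direction. Over all genes 50.5% lay above 0, and 58.0% of the 3133 brightest. Past 1.5-fold were 5.16% of all genes upwards and 4.75% downwards, and 3.03% and 1.98% of the brightest.

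Among the other genes of the pathway, the gene values of the regulators Mknk2 and Ppp1r15a stood further from 0 than any factor. So did that of Chac1, which responds to eIF2 phosphorylation. Of 42 measured genes in 7 lists, 4 were past 1.5-fold upwards and 1 downwards, with a median of 0.16 and 31 above 0. Over all genes 5.16% were past 1.5-fold upwards, 4.75% downwards and 50.5% above 0. Mknk2, a kinase of eIF4E, was 2.18-fold higher, with 0.51 and 1.74 at 2 probes that disagree in size. Ppp1r15a, also called GADD34, which brings a phosphatase to eIF2, had signals of 642 and 1436, a difference of 0.99 or 1.99-fold. Eif4ebp1, the repressor that holds eIF4E away from eIF4G, had 5080 and 9314, a difference of 0.70, while its relatives Eif4ebp2 and Eif4ebp3 lay at -0.067 and -0.11. Rps6kb1, the ribosomal S6 kinase, was 1.54-fold higher as the mean of 3 probes that differed widely in size, the lowest at 0.18.

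The genes that respond to eIF2 phosphorylation did not share a direction. Atf4, the transcription factor whose translation rises when eIF2 is phosphorylated, lay at 0.18, and its targets Asns, Ddit3 and Trib3 at 0.034, -0.11 and -0.22. Chac1, which breaks down glutathione, read 27555 in control and 14698 in N2ICD, 2.11-fold lower. The 5 measured termination and recycling factors ran from 0.067 for Abce1 to 0.46 for Etf1, the release factor that reads stop codons. Poly(A)-binding proteins and their partners had a median of 0.32, with Paip2b, an inhibitor of poly(A)-binding protein, at 0.49 and Pabpc1 at -0.092. The 9 mitochondrial factors had a median of 0.13 and ran from -0.24 for Tsfm to 0.45 for Guf1. The 3 genes of selenocysteine insertion and reinitiation had a median of 0.047, and the 12 measured regulators of initiation one of 0.29 with 9 above 0.

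**Figure D4:**
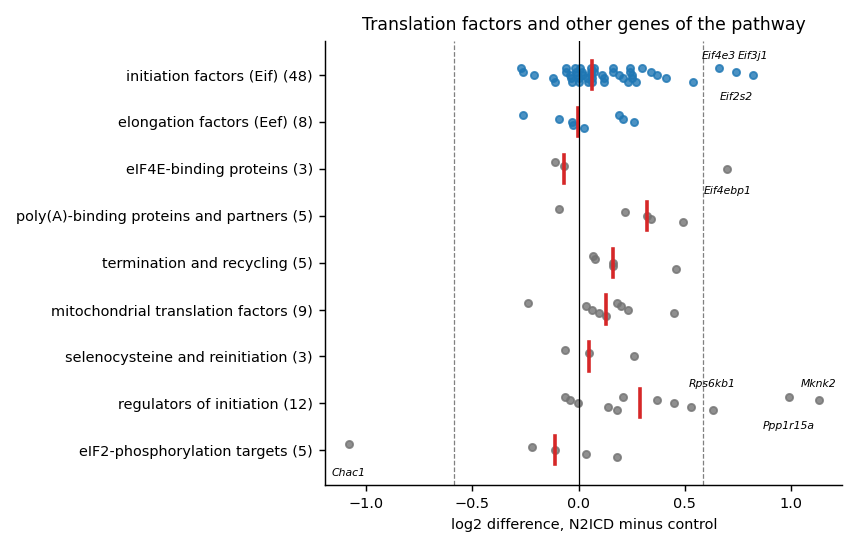
Log2 difference (N2ICD minus control, horizontal axis) of the initiation and elongation factors (blue) and of 7 lists of other pathway genes (grey), with each list's median as a red bar, its number of measured genes in brackets and dashed lines at 1.5-fold. Named points are past 1.5-fold: Eif3j1, Eif2s2 and Eif4e3 among the factors, and Mknk2, Ppp1r15a, Eif4ebp1, Rps6kb1 and Chac1 among the other genes.

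All directions are relative to the typical gene. The 7 E1A spike-in probes, control RNA added to each sample, all lay lower on the N2ICD array relative to the other spots, and a scale set by them moved the median of all genes from 0.0038 to 0.53. On that scale the median of the members was 0.58, 56 of 56 lay above 0 and 27 were at least 1.5-fold higher, beside 41.0% of all genes. Both scales shift each array as a whole, so the gap between the members' median and that of all genes, 0.057, was the same by construction. After quantile normalization, which does not shift all spots alike, that gap was 0.024. The authors' deposited table holds 86 of the member probes, and its log2 differences were within 0.016 of those computed here for each of them.

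**Figure D5:**
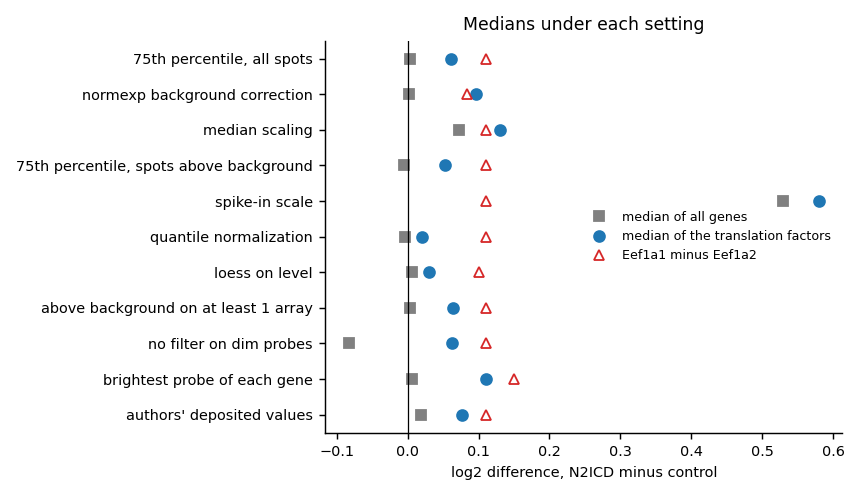
Median log2 difference of all genes (grey squares) and of the translation factors (blue circles), and the Eef1a1 minus Eef1a2 difference (open red triangles), under the 75th percentile scale and each other setting. The medians lie at 0.53 and 0.58 on the spike-in scale, while Eef1a1 minus Eef1a2 ranges from 0.084 to 0.15. Settings that shift a whole array cannot change Eef1a1 minus Eef1a2 or the gap between the medians.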

How the data were processed

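Total RNA of tibialis anterior muscle was labelled with Cy3 and hybridised to 1 array per genotype, per the labels. The authors made spot intensity values with Agilent Feature Extraction 10.10.1.1, background-subtracted and detrended within each array, per the file headers; probe coordinates are on mm9. Per probe, the table that the authors deposited lists a fold (ratio) without sign, an intensity and a normalized log2 value, by steps not given in the sources used here. From the scanner files, the 75th percentile of the 59305 spots other than controls was subtracted on each array from log2 processed signals (24916 and 24982 well above background, 0 saturated). Left out were 215 outlier spots. Spots were averaged per probe, then probes well above background on both arrays per gene. Probes named only by their own ID, accession or a chromosome position were left out. With 1 array per group no test was run; the number of arrays limits the precision.

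Members and lists were chosen with earlier results of these data known. Named with values were Eef1a1 and Eef1a2, members past 1.5-fold, the 8 highest and 8 lowest, the core subunits and members above background on 1 array. Bounds set the bright signal, after scaling, against the dim signal or, where that is lower, the lowest signal well above background on that array (25.4 in control and 27.1 in N2ICD). Symbols of 85 member probes matched RefSeq (GRCm38.p6) through their accession, and 0 gave another symbol. The steps were tested on simulated data. Alternatives were normexp background correction (offset 50), 5 other scales between arrays, 2 looser filters on dim probes, the brightest probe, the authors' deposited values and a 2-fold size. limma 3.58.1 in R 4.3.3 gave the normexp, quantile and loess values, and pandas 2.3.3 with numpy 2.4.6 in Python 3.11.15 the rest.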

Additional observations from a re-analysis of the deposited data

How the results depend on the processing

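No paired analysis was possible because each group holds 1 array. On the spike-in scale the median of the members was 0.58, 27 members were at least 1.5-fold higher, Eef1a1 was at 0.55 and Eef1a2 at 0.43. Class medians there were 0.58 for eIF1 and eIF1A, 0.58 for eIF2, 0.59 for eIF2B, 0.49 for the eIF2 kinases, 0.63 for eIF3, 0.58 for eIF4F and helpers, 0.47 for eIF5, eIF5A, eIF5B and eIF6, 0.49 for eEF1A, 0.60 for eEF1B, 0.61 for eEF2 and its kinase, and 0.59 for Eif4enif1 alone. At 2-fold, 0 members were higher. Classes were formed by gene name, so eIF2 also holds Eif2a and Eif2d, and eEF1B also holds Eef1e1. The eIF2 median was 0.22 with the brightest probe of each gene. The eIF2 kinase median was 0.24 with probes above background on at least 1 array and 0.28 with no filter on dim probes. The median of the members ran from 0.020 to 0.13 over the other settings, and 0 members were 1.5-fold lower under any setting. The count above 0 was 29 after quantile normalization, 32 after loess and 44 after normexp. Of the other 54 members, 54 moved by more than the spot noise on the spike-in scale, 6 with the brightest probe and 3 after normexp. The 3 members past 1.5-fold stayed at 0.40 or more under every setting. Members nearer 0 did change sign, among them Eef1d, Eif5a and Eif5a2, which were 0.26 on the spike-in scale. Dim genes, near the lowest signals above background, are the least precise.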
